A study of Gallus gallus with 10 samples.

Results

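The cytosolic ribosomal protein genes were followed in the magnum, the egg-white-secreting stretch of the oviduct, in broiler breeder hens (Gallus gallus) of 2 ages. The genes were taken by a rule on names, set with earlier results of these data known. It took symbols beginning RPL, RPS or RPLP with a number, or RPSA, without the RPS6 kinases. They were 72 of the 29558 genes in the count table, 44 of the large subunit and 28 with small subunit names. Of these, 7 have the names of paralogues (RPL3L, RPL36AL, RPS27L, RPL39L, RPL26L1, RPL7L1 and RPL22L1). RefSeq lists RPL39 and RPL26 as other names of RPL39L and RPL26L1, RPSA as another name of RPSAP58, and RPS4X as another name of RPS4Y1. RPS19BP1, a binding partner of a small subunit protein and not a ribosomal protein itself, was also caught by the name and is counted among the 28.

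The cytosolic ribosome is built from a small subunit, which reads the messenger RNA, and a large subunit, which joins amino acids, each made of ribosomal RNA and of proteins that are needed in about equal numbers. Their messenger RNAs belong to the TOP class, whose translation is turned up by growth signalling through mTOR. In a gland that makes egg white in bulk, ribosomes on the endoplasmic reticulum carry the synthesis of the secreted proteins.

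The study set hens in declining lay, at 50 weeks of age (labelled Aged, 5 hens), against hens at peak lay, at 35 weeks (labelled Young, 5 hens). Whole magnum tissue was taken from each bird while an egg was in the magnum, and no strain, treatment or genetic change is named for either age. The titles also name the shell gland, a later segment of the oviduct, whereas the tissue labels give the magnum. Markers of the magnum were present in each hen: 10 egg white genes summed to 27496 to 40698 CPM (counts scaled to a common library size) at 50 weeks and to 40596 to 53964 CPM at 35 weeks, on the scale of library totals.

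Library totals lay between 188271 and 258195 counts. At this depth a count of 0 allows up to 11.6 to 15.9 CPM, by counting error only. By principal components of the 500 tested genes that varied most, of which the leading one held 29.0% of variance, 3 libraries stood apart, namely replicate 4 at 50 weeks (score 10.9) and replicates 1 and 2 at 35 weeks (10.5 and 16.8), with the other 7 between −7.00 and −1.80. The same 3 had 74, 93 and 76 counts of the actin gene ACTB, against 11 to 22 in the other 7.

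At 50 weeks the ribosomal protein genes held 0.397%, 0.389%, 0.364%, 0.345% and 0.425% of a library in replicates 1 to 5, and at 35 weeks 0.491%, 0.424%, 0.395%, 0.322% and 0.381%. The lowest share and the highest were both at 35 weeks, so that the ages overlapped. The means were 0.384% ± 0.0306 at 50 weeks and 0.403% ± 0.0619 at 35 weeks (SD, n = 5 each), a difference of −0.0186 percentage points, less than the SD of either age. The sign of this difference rested on replicate 1 at 35 weeks: without that library it was 0.00352 points. Without the 3 libraries that stood apart, which include that library, the difference was 0.0277 points. The kit keeps strand, but which strand the counting took is not known here, so whether these counts are of the genes' own RNA was not tested, and a low count cannot be read as low expression. In whole tissue, fewer cells of a type and less RNA per cell cannot be told apart.

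**Figure D1:**
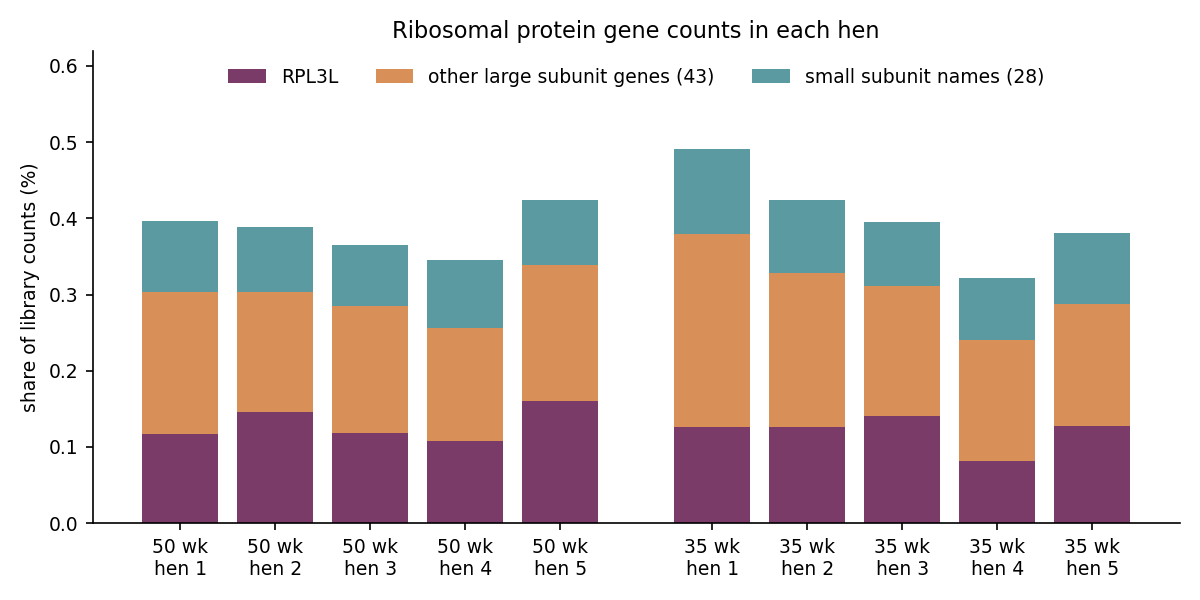
Stacked bars give the share of a library's counts (%, vertical axis) held by RPL3L, by the other 43 large subunit genes and by the 28 genes with small subunit names in each hen. The total is highest in replicate 1 at 35 weeks (0.491%) and lowest in replicate 4 at 35 weeks (0.322%), with the 50-week hens between them.

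Counts were spread very unevenly over the 72 genes. RPL3L alone held 31.8% of all their counts, the 5 genes with the most counts (RPL3L, RPL5, RPL31, RPS27 and RPL7A) 51.6%, and the first 10 held 68.0%. The median gene averaged 4.1 counts per library, 57 genes averaged under 10 counts and 8 averaged under 1. No gene was at 0 in all hens, and 46 had a count in each of the 10 hens. Counts are not divided by transcript length, so these are ranks of counts and not of RNA molecules.

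**Figure D2:**
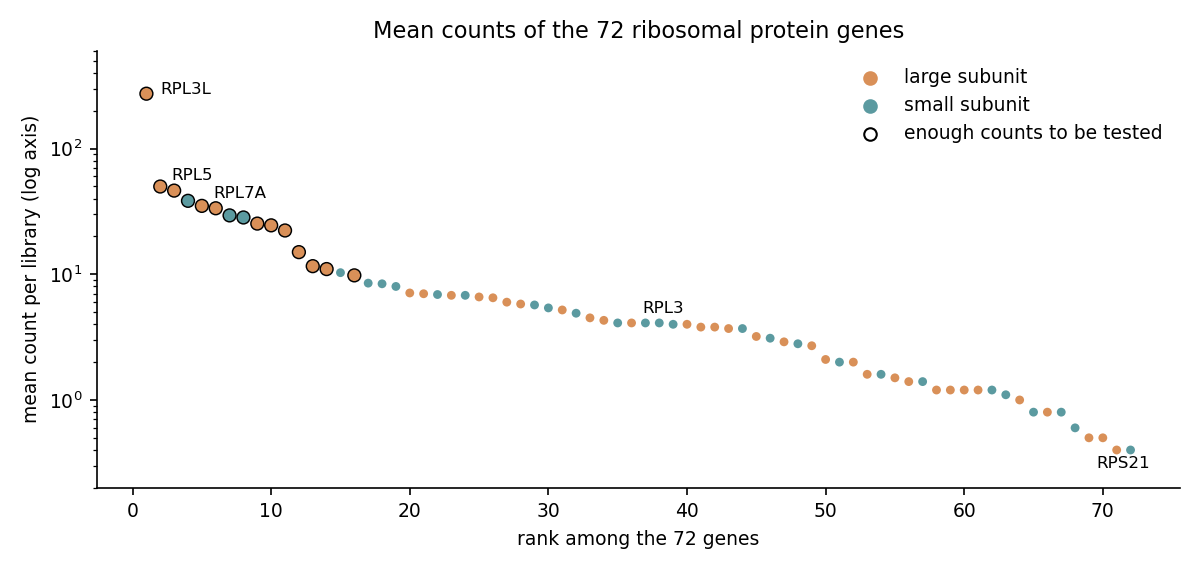
Each point is 1 of the 72 genes, placed by its rank and by its mean count over the 10 libraries (log axis), coloured by subunit, with a black rim where the gene had enough counts to be tested. RPL3L stands at 273.2 counts, RPL5, the next, at 49.9, and RPL3 at 4.1.

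RPL3L is a paralogue of RPL3, the large subunit protein that lies nearest to the site of peptide bond formation. In human and mouse it takes the place of RPL3 in heart and skeletal muscle. In these hens it had 240, 318, 266, 280 and 366 counts at 50 weeks and 283, 296, 270, 172 and 241 at 35 weeks. The ages overlapped, and the lowest hen was replicate 4 at 35 weeks. RPL3 had 2 to 5 counts at 50 weeks and 1 to 7 at 35 weeks, and ranked 36th among the 72 genes by mean count.

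The mean CPM of RPL3L was 1279 ± 215 at 50 weeks and 1226 ± 229.7 at 35 weeks (SD, n = 5 each). Its log2 fold change (50 over 35 weeks) was 0.061 with a 95% interval of −0.30 to 0.42 (adjusted p = 0.942, quasi-likelihood test of edgeR, Benjamini-Hochberg). Leaving out replicate 5 at 50 weeks or replicate 4 at 35 weeks turned the sign (−0.027 and −0.050). It made up 29.5% to 37.7% of the ribosomal protein counts at 50 weeks and 25.4% to 35.8% at 35 weeks. No count in any hen was found for 8 of the 16 striated muscle markers present, among them the troponin genes TNNT3, TNNI2, TNNC2 and TNNT2. Of the 20 markers listed, ACTA1, CKM, MYLPF and NEB had no entry under these names, so nothing is known of them here. The 16 present summed to 4.87 to 27.5 CPM at 50 weeks and 17.9 to 31.9 CPM at 35 weeks on the scale of library totals.

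RPL3L lies on chromosome 14 at 6135330 to 6142706 (GRCg7b, RefSeq), 852 bases from NDUFB10, a subunit gene of respiratory complex I. NDUFB10 lies in turn 440 bases from RPS2, which encodes a protein of the small subunit at the messenger RNA entry site. NDUFB10 had 691, 798, 761, 588 and 790 counts at 50 weeks and 777, 805, 505, 641 and 422 at 35 weeks. In each of the 10 hens that was more than RPL3L had, with 0.347 to 0.476 RPL3L counts per NDUFB10 count at 50 weeks and 0.268 to 0.571 at 35 weeks. RPS2 had 2 to 7 counts at 50 weeks and 2 to 10 at 35 weeks. By these coordinates NDUFB10 overlaps neither RPL3L nor RPS2. Whether strand was used in counting is not known here, so reads of genes that do overlap cannot be told apart. Whether the counts here are of each gene's own RNA was not tested.

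RPL7A, a large subunit protein and a host of small nucleolar RNAs (snoRNAs, which guide modification of ribosomal RNA), held much less than RPL3L. By mean count it was number 5 of the 72, and it made up 3.19% to 5.12% of the ribosomal protein counts at 50 weeks and 2.65% to 4.62% at 35 weeks. It had 26, 36, 42, 41 and 46 counts at 50 weeks and 34, 46, 30, 30 and 19 at 35 weeks, so that the ages overlapped. Its mean CPM was 165 ± 26.1 at 50 weeks and 152 ± 35.6 at 35 weeks, SD over 5 hens (log2 fold change 0.11, 95% interval −0.35 to 0.57, edgeR adjusted p = 0.909). Without replicate 5 at 35 weeks, its lowest hen, the log2 fold change was −0.00033.

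RPL7A lies on chromosome 17 at 7472396 to 7476009. SURF1, an assembly factor of cytochrome c oxidase 217 bases away, averaged 848.1 counts, and MED22, a subunit of the Mediator complex 111 bases away, averaged 77.3. The mean CPM of SURF1 was 3919 ± 488 at 50 weeks and 3837 ± 476 at 35 weeks (log2 fold change 0.030, edgeR adjusted p = 0.968). RPL3L and RPL7A together were 38.1% ± 4.05 of the ribosomal protein counts at 50 weeks and 33.8% ± 4.51 at 35 weeks (SD, n = 5 each), and the ages overlapped.

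Large subunit genes held 0.297% ± 0.0302 of counts at 50 weeks and 0.309% ± 0.0515 at 35 weeks, while small subunit names held 0.0868% ± 0.00534 at 50 weeks and 0.0933% ± 0.0117 at 35 weeks (SD, n = 5 each). The ratio of large to small subunit counts was 3.24, 3.55, 3.61, 2.86 and 3.92 at 50 weeks and 3.41, 3.44, 3.69, 2.92 and 3.08 at 35 weeks. The ages overlapped, with means of 3.43 ± 0.404 at 50 weeks and 3.31 ± 0.307 at 35 weeks. Without RPL3L the ratio was 1.93 ± 0.190 at 50 weeks and 2.01 ± 0.210 at 35 weeks, a difference of the other sign. Without the 3 libraries that stood apart it was 2.00 at 50 weeks and 1.88 at 35 weeks, and with RPL3L 3.58 at 50 weeks and 3.23 at 35 weeks. The difference in the large subunit share also turned sign with the libraries: it was −0.0121 points over all 10, 0.00553 without replicate 1 at 35 weeks and 0.0281 without the 3. The median gene had 4.2 counts among the 44 large subunit genes and 4.1 among the 28 small subunit names.

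With enough counts to be tested were 15 of the 72 genes, 12 of the large and 3 of the small subunit, which held 76.1% of the ribosomal protein counts. None of the 15 passed an adjusted p under 0.05 between the ages in edgeR's quasi-likelihood test, where 0.0564% of all 1773 tested genes passed. DESeq2 called none of the 10 it gave an adjusted p, and 1.82% of all such genes. It gave none to RPL6, RPL37A, RPL32, RPL7 and RPL15. Limma called none of the 15, and 0.451% of all tested genes. With a filter of 1 CPM in 5 libraries none of the 67 ribosomal protein genes that passed it was called (0.506% of all genes were). None of the 15 was called without replicate 4 at 50 weeks (0.677%) or without the 3 libraries that stood apart (2.03%). None of the 15 had hens that did not overlap between the ages on the CPM scale, against 1.64% of all tested genes (1.13% lower at 50 weeks). At an unadjusted p under 0.05 there were 2 of the 15, both with negative fold changes, where 10.5% of all tested genes had such a p (6.03% with negative fold changes). Negative fold changes were found for 10 of the 15, against 49.2% of all tested genes, and the median log2 fold change was −0.25, against 0.0060 over all tested genes. Without the 3 libraries that stood apart 7 of the 15 were negative and the median was 0.10, and without replicate 1 at 35 weeks alone it was −0.07.

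**Figure D3:**
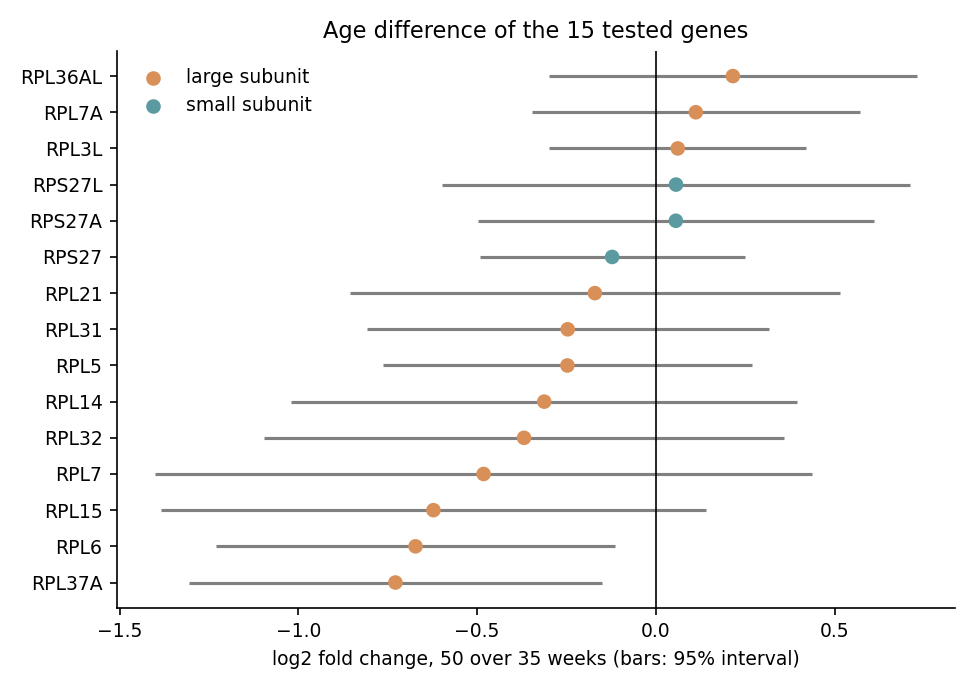
Points are log2 fold changes of the 15 tested genes, 50 over 35 weeks, with bars for the 95% interval and colours for the subunit. The intervals of RPL37A and RPL6 lie below 0 before any adjustment for the 1773 genes tested, and the other 13 include 0.

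RPL37A and RPL6 were the genes with an unadjusted p under 0.05. RPL37A, a small zinc-binding protein of the large subunit, lies on chromosome 7 at 22954381 to 22957006. It had 11, 11, 13, 11 and 14 counts at 50 weeks and 27, 18, 19, 15 and 11 at 35 weeks. On the CPM scale the highest hen at 50 weeks (60.4) lay just above the lowest at 35 weeks (58.7). The log2 fold change was −0.73 with an SE of 0.27 (edgeR adjusted p = 0.346).

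RPL6, a large subunit protein on chromosome 15 at 6395368 to 6401507, had 16, 26, 20, 13 and 16 counts at 50 weeks and 39, 30, 23, 20 and 20 at 35 weeks. Only replicate 2 at 50 weeks overlapped the 35-week hens on the CPM scale. The log2 fold change was −0.67 with an SE of 0.26 (edgeR adjusted p = 0.364). Without the 3 libraries that stood apart the log2 fold changes were −0.50 for RPL37A and −0.32 for RPL6, and neither gene had an unadjusted p under 0.05, and without replicate 1 at 35 weeks, where both were highest, neither had one.

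RPL5, which binds 5S ribosomal RNA together with RPL11 and with it can hold back MDM2, had 52, 42, 40, 46 and 59 counts at 50 weeks and 85, 61, 35, 49 and 30 at 35 weeks. The ages overlapped, with the 2 extremes both at 35 weeks (log2 fold change −0.25, SE 0.24). Its partner RPL11 had 3 to 15 counts at 50 weeks and 3 to 8 at 35 weeks, too few to be tested. RPL31, which sits near the exit of the peptide tunnel, had 55, 23, 54, 44 and 48 counts at 50 weeks and 68, 43, 35, 36 and 57 at 35 weeks (log2 fold change −0.25, SE 0.26). The ages overlapped here too, and replicate 2 at 50 weeks was the lowest.

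The large subunit genes RPL14, RPL21, RPL7, RPL15 and RPL32 also overlapped between the ages. RPL14 had 27, 26, 21, 11 and 33 counts at 50 weeks and 46, 33, 22, 18 and 16 at 35 weeks (log2 fold change −0.31, SE 0.33). RPL21 had 17, 30, 21, 27 and 26 counts at 50 weeks and 48, 26, 17, 24 and 9 at 35 weeks (−0.17, SE 0.32). Both were highest in replicate 1 at 35 weeks. RPL7 had 13, 14, 11, 2 and 8 counts at 50 weeks and 17, 19, 8, 8 and 10 at 35 weeks (−0.48, SE 0.43). RPL15 had 9, 4, 6, 13 and 9 counts at 50 weeks and 18, 12, 6, 10 and 11 at 35 weeks (−0.62, SE 0.36), and overlaps NKIRAS1, an inhibitor of NF-kappa-B signalling that averaged 295.9 counts. RPL15 and RPL7 are therefore measured on few counts, and for RPL15 the counts of the neighbour were far higher. RPL32 had 5, 12, 19, 9 and 9 counts at 50 weeks and 9, 15, 14, 11 and 13 at 35 weeks (−0.37, SE 0.34), and was lowest in replicate 1 at 50 weeks.

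The 3 tested small subunit genes had fold changes within 1 SE of 0. RPS27 encodes a zinc finger protein and RPS27L is its paralogue, and since their sequences are alike their counts are uncertain. RPS27 had 40, 37, 35, 43 and 39 counts at 50 weeks and 45, 42, 31, 35 and 37 at 35 weeks (log2 fold change −0.12, SE 0.17), the smallest SD relative to its mean CPM among the tested genes at either age. RPS27L had 33, 25, 21, 56 and 23 counts at 50 weeks and 36, 38, 26, 13 and 23 at 35 weeks (0.056, SE 0.31), with replicate 4 at 50 weeks the highest. RPS27A, which is made as a fusion with ubiquitin, had 28, 34, 28, 30 and 33 counts at 50 weeks and 21, 16, 26, 31 and 36 at 35 weeks (0.056, SE 0.26). The 50-week hens all lay inside the range of the 35-week hens. RPL36AL, a paralogue of the large subunit gene RPL36A, had 50, 32, 33, 47 and 27 counts at 50 weeks and 28, 34, 36, 23 and 25 at 35 weeks (0.22, SE 0.24), and was the highest of the positive fold changes.

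**Figure D4:**
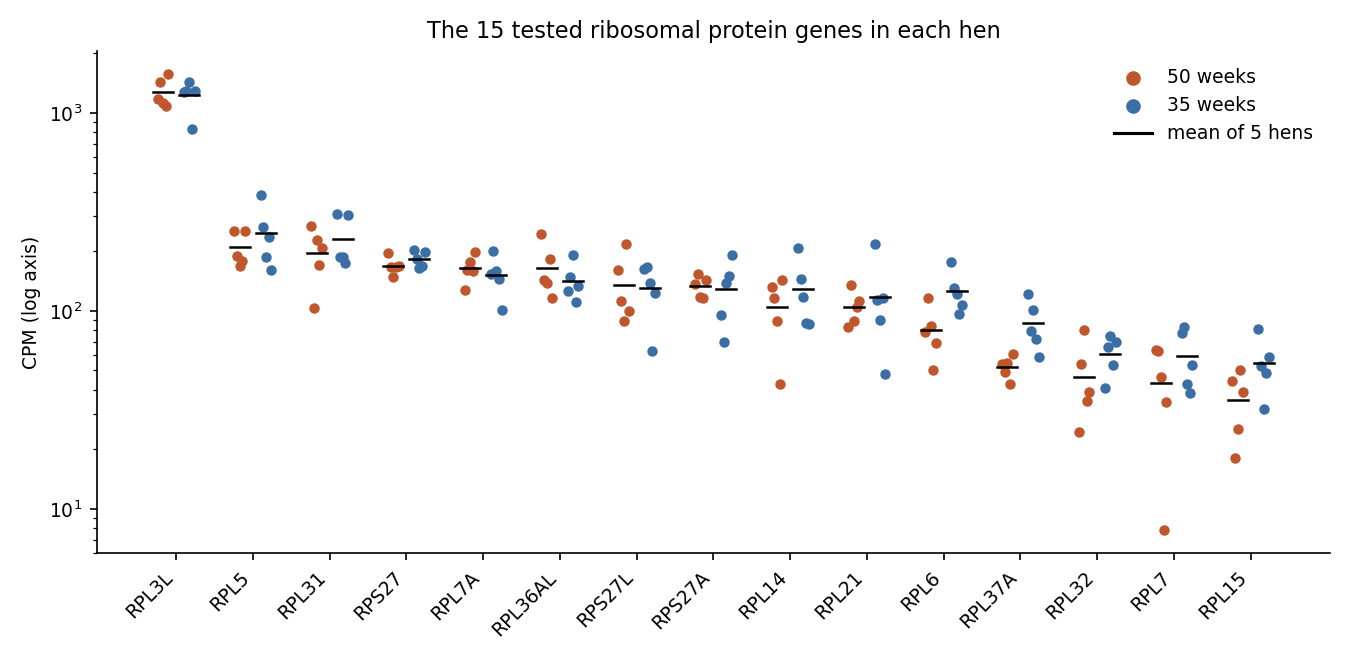
Points are the CPM (log axis) of the 15 tested genes in each hen, 50 weeks to the left of 35 weeks, with a line at the mean of 5 hens. The hens of the 2 ages overlap for each of the 15 genes, by the least for RPL37A.

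Untested genes had at most 20 counts in any hen. Among the 10 with the highest mean counts were RPS24 (5 to 11 counts at 50 weeks and 6 to 20 at 35 weeks), RPS4Y1 (5 to 16 at 50 weeks and 4 to 12 at 35 weeks), RPS26, RPL19, RPL30, RPS6, RPL11, RPS28 and RPL23. RPS6, the substrate of the S6 kinases downstream of mTOR, had 4 to 10 counts at 50 weeks and 3 to 12 at 35 weeks. The stalk genes, whose proteins recruit elongation factors to the large subunit, were lower still. RPLP0 had 1 to 7 counts at 50 weeks and 0 to 4 at 35 weeks, RPLP1 had 1 to 6 at 50 weeks and 2 to 7 at 35 weeks, and RPLP2 had 0 to 2 at 50 weeks and 0 to 3 at 35 weeks. RPL10A, RPL22L1, RPL27A, RPL37, RPS16, RPS19BP1, RPS21 and RPS29 averaged under 1 count, at which a difference between the ages was not detectable.

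RPL13, a large subunit gene on chromosome 11 at 18381458 to 18385741, was the 1 gene of the 72 whose hens did not overlap between the ages on the CPM scale, as held for 0.595% of the genes with any count (0.367% lower at 50 weeks). It had 3, 1, 1, 3 and 1 counts at 50 weeks and 5, 5, 3, 4 and 6 at 35 weeks, so that on raw counts the ages met at 3. RPL22, which also has roles outside the ribosome in lymphocytes, had 0 to 2 counts at 50 weeks and 0 to 9 at 35 weeks. These 2 genes (2.78% of the 72) are also in the authors' deposited table, which holds 203 genes (1.29% of those with any count) and gives fold changes as 35 over 50 weeks. The authors' deposited table gives RPL13 a log2 fold change of 1.503 (SE 0.74) and RPL22 one of 1.90 (SE 0.96), both without an adjusted p. A place in that table is therefore not a call at an adjusted p. It comes from the same hens and is no second measurement. With no filter on low counts, 6 of the 72, among them RPL6, RPL37A, RPL13, RPL22 and RPS20, had an unadjusted p under 0.05 in edgeR, each with a negative fold change, where 5.86% of the 15792 genes fitted had such a p (3.17% negative and 2.68% positive). None of the 72 passed an adjusted p under 0.05 there, while 0.228% of those genes did (lowest adjusted p among the 72, 0.581).

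A single hen held the highest value of many of the genes. Of the 15 tested genes 8 had their highest CPM in replicate 1 at 35 weeks, where 10.2% of all tested genes had theirs, and 24 of all 72 (33.3%) did, against 10.4% of the genes with any count. This pattern was picked after the values were seen. Without RPL3L, the ribosomal protein genes held 0.365% of counts in that hen and 0.298% in replicate 2 at 35 weeks. In the remaining 8 hens they held 0.237% to 0.280%, across both ages. The same hen had the highest sum of the 10 egg white genes (53964 CPM) and of the 16 other TOP genes in the table (1276 CPM, against 680 to 1086 CPM in the other 9). It had 93 counts of ACTB. The part of these in the result was not tested.

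Genes that work with the ribosomal proteins did not pass the test either. Of the ribosomal proteins outside the name rule, RACK1, a scaffold on the small subunit, had 21 to 38 counts at 50 weeks and 24 to 40 at 35 weeks (log2 fold change −0.28, SE 0.21). Counts sufficed for 7 of 52 ribosome assembly genes, 4 with positive and 3 with negative fold changes, and none passed. UTP3, a factor of small subunit assembly, had a mean CPM of 15910 ± 3761 at 50 weeks and 7416 ± 3316 at 35 weeks (log2 fold change 1.10, SE 0.28, edgeR adjusted p = 0.175). It passed in DESeq2 (adjusted p = 0.0222), and in edgeR without replicate 1 at 35 weeks (adjusted p = 0.0333) or with the 3 outlying libraries left out (adjusted p = 0.0178). It did not pass with limma (adjusted p = 0.0578) or in any other fit run. The ages overlapped, with 2423 to 4806 counts at 50 weeks and 764 to 2812 at 35 weeks. The highest hen at 35 weeks was replicate 1. UTP3 averaged 2605.1 counts per library, and MRTO4, the next of the 52, averaged 204.7. Whether these counts are of the genes' own RNA was not tested. DKC1, which modifies ribosomal RNA, had a mean CPM of 289 ± 39.1 at 50 weeks and 355 ± 32.0 at 35 weeks (−0.30, SE 0.16). Of 10 RNA polymerase I genes, whose products transcribe ribosomal RNA, the 1 tested, POLR1B, did not pass (−0.28, SE 0.18, and −0.46 without those 3 libraries).

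Translation factors and other genes with TOP messenger RNAs had 4 tested of 16 in the table, none past the threshold, with 3 negative. TPT1, the translationally controlled tumour protein, had a mean CPM of 207 ± 51.8 at 50 weeks and 294 ± 85.0 at 35 weeks (log2 fold change −0.51, SE 0.23, and −0.096 without the 3 libraries that stood apart). EEF1A1, the elongation factor that brings transfer RNA to the ribosome, had a mean CPM of 211 ± 67.2 at 50 weeks and 279 ± 98.5 at 35 weeks (−0.41, SE 0.28, and −0.12 without those libraries). Of 24 growth signalling genes 2 were tested and neither passed, the S6 kinases RPS6KB1 (−0.31, SE 0.26) and RPS6KB2 (−0.23, SE 0.25). Smooth muscle markers summed to 132 to 196 CPM at 50 weeks and 115 to 328 CPM at 35 weeks, immune markers to 1062 to 1669 CPM at 50 weeks and 887 to 1333 CPM at 35 weeks, and red blood cell markers to 4.58 to 39.0 CPM at 50 weeks and 0 to 13.4 CPM at 35 weeks, on the scale of library totals. Of the 14 immune markers in the table, MPEG1 averaged 187.9 counts and CD3E, the next, 37.3. CD3D, CD4, C1QA and C1QB, 4 of the 14, had no count in any hen, and nor did 2 of the 8 red blood cell markers. The immune sum is therefore mostly that of MPEG1. The part of these markers in the results was not tested.

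In the genome the genes share features that their names do not fix. Of the 72, 71 were matched to RefSeq (RPL36AL was not), on 27 chromosomes. Genes that RefSeq classes as snoRNAs lay within the span of 23 of the 71 (32.4%), against 0.499% of 18023 protein-coding genes. RPL4, a protein that lines the peptide tunnel, held 5 of them. The 23 hosts by this class had a median of 4.5 counts and the other 48 a median of 4.05. SNORD83A, by its name a snoRNA, lies within RPL3 but was not in that class, so RPL3 is among the 48. The median gene spanned 3303 bases, against 11985 for all protein-coding genes. On the Z chromosome, of which hens carry a single copy, lay RPS6, RPS23, RPL17 and RPL37.

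Some of the genes that overlap the ribosomal protein genes or lie within 1 kb of them had more counts. In 21 of 52 such pairs the neighbour had the higher mean count, and this held for 19 of the 42 genes with a neighbour in the table. Together the 51 neighbours held 1.93% to 2.36% of a library at 50 weeks and 1.77% to 2.50% at 35 weeks, above the ribosomal protein genes in each hen. Of the 51 neighbours, 11 averaged over 100 counts, and the sum is mostly that of these 11. Neither this sum nor the number of such pairs was worked out for other genes and their neighbours. Whether high-count neighbours are a trait of ribosomal protein genes was therefore not tested. PPT1, a lysosomal thioesterase 135 bases from RPL11, averaged 521.3 counts against 6.8 for RPL11. IQCG, a cilium gene that overlaps RPL35A, averaged 325.5 against 1.0, and ATP6AP1L, 127 bases from RPS23, averaged 769.1 against 3.7. In the other pairs, which were the larger part, the neighbour had the same or a lower mean count, such as TBC1D8 at 1.6 beside RPL31 at 46.3.

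**Figure D5:**
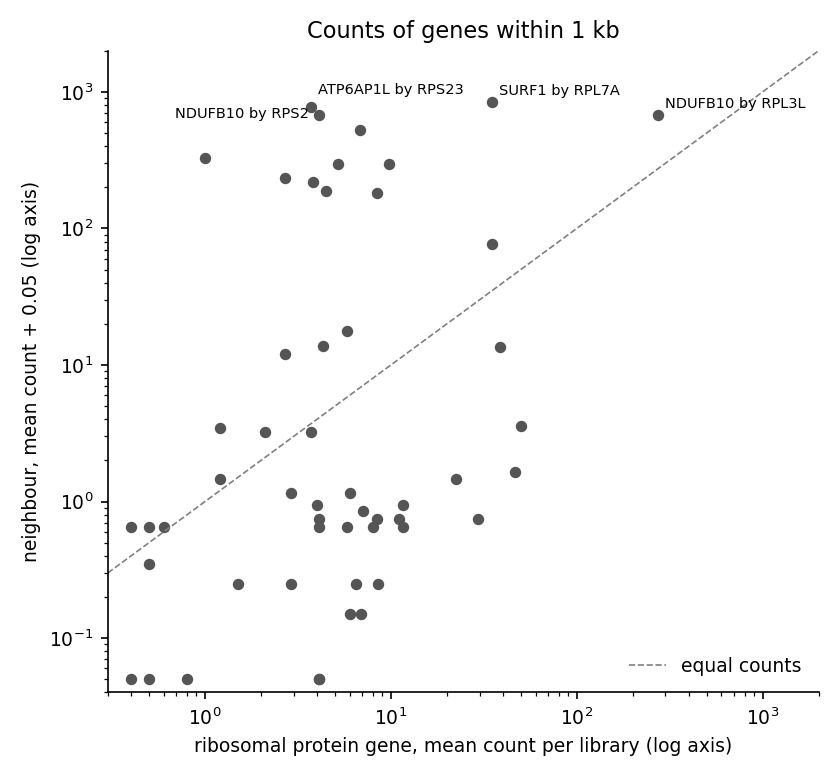
Each point is a ribosomal protein gene (horizontal axis, mean count per library, log axis) and a gene that overlaps it or lies within 1 kb (vertical axis, mean count plus 0.05, log axis), with a dashed line at equal counts. In 21 of the 52 pairs the neighbour had the higher mean count, among them NDUFB10 beside RPL3L and SURF1 beside RPL7A. LRR1 beside RPS29, at 0.6 counts each, lies above the line only by the added 0.05.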

How the data were processed

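Magnum RNA of 10 hens was sequenced with a directional kit after TRIzol extraction, per the labels' protocols. Trimmomatic, HISAT2, Cufflinks, DESeq2 and the build GRCg7b are named in the processing notes of the submitters. Versions, read counter and strand setting: not given in the sources used here. Whole-number counts for each Ensembl gene were deposited by the authors without normalization, beside a table of their own comparison whose columns are those DESeq2 writes, per the file headers. Of that table its log2 fold changes and standard errors are printed, as the authors' deposited values. Its p-values, per the file headers, its score (the authors' Wald statistic) and its mean signal (normalised counts, per the file headers) were not used in any test.

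Columns were matched to hens by the column names in the labels. Ages were compared in R 4.3.3 by edgeR 4.0.16 (filterByExpr with a minimum count of 10, TMM, robust glmQLFit and glmQLFTest, two-sided, Benjamini-Hochberg adjustment over 1773 tested genes, threshold 0.05). An SE is the fold change divided by the root of the F statistic. CPM values use the library total times the TMM factor unless said otherwise. Summed shares carry no p. Symbols were matched to RefSeq's GRCg7b table for coordinates and neighbours. Alternatives used DESeq2 1.42.0 and limma 3.58.1, RLE factors, library totals, other filters, a replicate block, and fewer libraries. On simulated data with 100 genes changed 2-fold and 100 changed 4-fold among 1773, 69% and 99% were recovered. The simulation gave each gene the same dispersion (spread between libraries) and had no libraries that stood apart. These rates are therefore not those for ribosomal protein genes with few counts. Pairs of libraries of 1 age differed beyond sampling noise (chi-square of at least 2.66 per degree of freedom). The labels number each bird but do not say whether libraries differ in other ways. The p-values set the age difference against the spread between these hens. Age and any unlabelled difference between the groups cannot be told apart.

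The members and lists were chosen with earlier results of these data known. Genes named are the tested members with all hens, untested members among the 10 with the highest mean counts, members averaging under 1 count or not overlapping between ages, paralogues, the 2 smallest p of each list, and neighbours with more counts. The members averaging under 1 count, RPL11, RPL22, the stalk genes and the neighbours TBC1D8 and MED22 were added after their values were seen. The immune markers named were added in the same way. Some genes that this rule names are not reported here.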

Additional observations from a re-analysis of the deposited data

Results flagged for a closer look

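In 3 of 78 groups of 5 hens checked, 1 hen lay far from the other 4 of its age (its gap to the nearest over 0.71 of the range, which chance gives in about 1 of 20 groups). RPL3L was lowest in replicate 4 at 35 weeks, at 831 CPM, with the nearest hen at 1280.3 CPM, and without that hen the log2 fold change of RPL3L was −0.050. DKC1 was lowest in replicate 5 at 50 weeks, at 220.2 CPM, with the nearest at 296.4 CPM. MYH11, the smooth muscle myosin gene, was highest in replicate 4 at 35 weeks, at 149.8 CPM, with the nearest at 78.7 CPM.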

How the results depend on the processing

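No ribosomal protein gene that was fitted passed an adjusted p under 0.05 in any of the 18 other fits (lowest adjusted p among the 15, 0.258). The other 57 entered at most the fits with another filter or none and DESeq2. Over all genes edgeR called 1 in the reported fit, 36 with no filter on low counts, 40 with a filter of 1 CPM in 5 libraries, 2 with the replicate block, 36 without the 3 libraries that stood apart, and 1 to 12 on leaving out 1 library (12 without replicate 4 at 50 weeks). DESeq2 called 20 and limma 8. Same-numbered hens correlated between −0.115 and 0.0979, so expression gave no sign of pairing by number. These values cannot show whether hens were paired in housing or handling. The median log2 fold change of the 15 was 0.10 without the 3 libraries and −0.32 to −0.07 without 1. Of the 15, 7 kept their sign throughout. On leaving out 1 library RPL3L ranged from −0.050 to 0.12, RPL7A from −0.00033 to 0.23, RPS27L from −0.19 to 0.18, RPS27A from −0.10 to 0.24, RPL21 from −0.36 to 0.17, MYH11 from −0.46 to 0.023, TAGLN from −0.21 to 0.069, NDUFB10 from −0.014 to 0.17 and SURF1 from −0.021 to 0.10. Without the 3 libraries the sign turned for RPL5 (0.15), RPL14 (0.31), RPL21 (0.29), RPL7 (0.20) and RPS27A (−0.22), and with limma for RPS27L (−0.032) and RPL21 (0.076). The cause was not tested. Differences in shares and ratios stayed within 1 SD, pooled over both ages, of the reported ones under all alternatives run. The signs of the differences in total and large subunit share turned as given above. Without the 3 libraries the difference in total share moved from −0.0186 to 0.0277 points, by more than the 50-week SD of 0.0306. Without the 3 libraries RPL3L was at 0.16, RPL7A at 0.30, RPL31 at −0.13, RPS27 at −0.068, NDUFB10 at 0.34 and SURF1 at 0.20. Depth kept 57 genes from the reported test.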

Other observations

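RPS26, RPS27A and RPS28, picked after their values were seen, were lower in replicates 1 and 2 at 35 weeks, on the CPM scale, than in the other 8 hens. The share of all genes that were lowest in those 2 hens was not counted, so the pattern cannot be set against it. RPS26 and RPS28 also rest on few counts. RPS26 had 4 and 1 counts there, against 6, 7 and 12 in the other three hens at 35 weeks and 6 to 15 at 50 weeks. RPS28 had 2 and 4 counts there, against 4, 9 and 9 in replicates 3 to 5 and 5 to 12 at 50 weeks. RPS27A had 21 and 16, against 26, 31 and 36 in replicates 3 to 5 and 28 to 34 at 50 weeks. RPS23 was likewise lowest in those replicates among the 35-week hens, but had 4.90 and 8.64 CPM in replicates 1 and 5 at 50 weeks.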
